A study of Homo sapiens with 42 samples.

Results

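The chromatin loops described here lie in a stretch of 800 kb on human chromosome 19 where the AP-1 gene JUNB and the erythroid gene KLF1 are neighbours, together with CALR, DNASE2 and NFIX. A loop was taken when either of its anchors began between positions 12500000 and 13300000 of chromosome 19 in the hg38 build. Of the 33914 loops listed, 12 met this rule. Within the stretch positions alone chose the loops, but the stretch itself was chosen with earlier results of these data known. The assay was in situ Hi-C, in which chromatin is crosslinked and cut and neighbouring ends are joined, so that each read pair reports positions that touched. The cells were K562, an established human leukemia cell line labelled as wild type, and every group carried the same label for its treatment, PMA, a phorbol ester. PMA was given at 25 nM for 0 h, 6 h or 72 h to drive the cells toward megakaryocytes, and the culture medium was renewed during the longer treatment. The 42 samples, 14 per time, formed 12 libraries, 4 biological replicates at each time.

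JUNB is a subunit of AP-1, a dimer of JUN and FOS proteins that binds DNA and is best known for its response to phorbol esters and growth signals. KLF1 is a zinc finger factor of red cell precursors that switches on globin and other erythroid genes and opposes the megakaryocyte program. K562 cells have features of both lineages, and phorbol ester treatment of this line is a common model of megakaryocyte differentiation. A chromatin loop is a pair of positions that touch more often than their surroundings. Many loops are held by CTCF and cohesin, and others join promoters to enhancers. Contacts were measured, not expression, and a count at a loop holds the local background of its position as well as the loop itself.

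The start sites of JUNB and KLF1 lay 95.7 kb apart, and those of KLF1 and CALR 51.4 kb. The 250 bases before each start site are shown because the KLF1 and CALR start sites lie in the opposite anchors of 1 loop, while JUNB lies between anchors. Sequences are from RefSeq (GRCh38.p14), matched by symbol for 3 of 3 genes and printed from 5′ to 3′ on the strand of the gene. Capitals mark matches to GATAA (the core read by GATA factors), CACCC (the box read by KLF1 and its relatives) or TGANTCA (the AP-1 element), searched on both strands. GATAA on the other strand reads TTATC, and CACCC reads GGGTG. The windows are chr19:12791236-12791485 on the plus strand for JUNB, chr19:12887202-12887451 on the minus strand for KLF1 and chr19:12938359-12938608 on the plus strand for CALR.
JUNB: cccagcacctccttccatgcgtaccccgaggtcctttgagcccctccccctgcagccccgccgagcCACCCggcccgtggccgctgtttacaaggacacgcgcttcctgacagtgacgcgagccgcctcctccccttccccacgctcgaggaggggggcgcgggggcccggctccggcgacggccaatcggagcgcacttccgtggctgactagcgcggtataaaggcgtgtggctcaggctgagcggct
KLF1: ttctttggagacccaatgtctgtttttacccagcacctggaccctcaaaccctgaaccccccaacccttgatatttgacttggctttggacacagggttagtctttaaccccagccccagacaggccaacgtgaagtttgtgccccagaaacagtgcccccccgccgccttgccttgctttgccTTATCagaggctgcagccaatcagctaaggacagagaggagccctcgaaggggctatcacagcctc
CALR: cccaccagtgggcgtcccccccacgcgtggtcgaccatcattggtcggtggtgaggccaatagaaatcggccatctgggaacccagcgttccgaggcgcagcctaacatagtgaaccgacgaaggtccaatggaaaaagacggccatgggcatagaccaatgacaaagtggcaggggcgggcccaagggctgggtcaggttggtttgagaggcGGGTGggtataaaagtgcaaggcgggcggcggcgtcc
JUNB held 1 CACCC match at -184 from its start site. KLF1 held 1 GATAA match on the other strand at -66, and CALR held 1 CACCC match on the other strand at -37. No 2 matches overlapped. Of 35116 windows of this length before RefSeq start sites, 20.4% held GATAA, 54.7% CACCC and 6.57% TGANTCA. These are matches of letters in a window, and binding was not measured.

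Libraries held between 736929 and 1472197 contacts over all loops. A chi-square test over loops found no difference between replicates 3 and 4 past sampling noise at 0 h (chi-square per degree of freedom 1.014, p = 0.0591) and at 72 h (1 per degree of freedom, p = 0.489). At 6 h this pair was almost as close, but passed the threshold (1.016, p = 0.0327). Means therefore treat the pair as 1 sample at 0 h and 72 h and as separate samples at 6 h, with n = 3 at 0 h, n = 4 at 6 h and n = 3 at 72 h. Spread within the pair is thus left out of the SD at 0 h and 72 h, and these SDs are not comparable with those at 6 h. The fits kept replicates 3 and 4 as separate libraries, and with them summed at 0 h and 72 h, or at every time, the same numbers of neighbourhood loops were called. The labels name biological replicates but do not say that they came from separate cultures, so p-values measure the spread between these libraries. The 12 loops were 50 kb to 570 kb long with a median of 125 kb, and all 12 had enough contacts for a test. Their mean raw count per library ran from 16.2 to 155.9, against a median of 29.25 over all tested loops. All 12 are classed as static in the authors' deposited table. These include loops with a deposited adjusted p under 0.05, given further on. The class thus does not rest on that threshold alone, unlike the calls made here.

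Contacts fell at 72 h of PMA at the KLF1-CALR loop, the shorter loop across JUNB, loop30701 and loop30703 at NFIX, and loop30697. The longer loops across JUNB and NFIX, loop30698 and loop30702, did not pass. Contacts rose at 1 loop that starts inside the calcium channel gene CACNA1A. Against 0 h, edgeR's quasi-likelihood test called 6 of the 12 loops at 72 h at an adjusted p under 0.05, 5 lost and 1 gained, where lost means fewer and gained means more contacts. Of the 5 lost calls, 2 remained when libraries were scaled on chromosome 19 loops alone, as given further on. Of all 24132 tested loops, 33.6% were called in this comparison, 16.7% gained and 16.9% lost. On the rest of chromosome 19, 35.3% were lost, and 42.2% of those with the lengths of the lost neighbourhood loops. At 6 h, 1 of 12 loops changed and was lost, beside 6.41% of all tested loops called and 4.07% lost. On the rest of chromosome 19, 8.03% were lost at 6 h. Between 6 h and 72 h, 1 of 12 changed and was lost, beside 20.5% called and 9.81% lost, and 20.6% lost on the rest of chromosome 19. The median log2 fold change of the 12 loops was -0.15 at 6 h and -0.29 at 72 h, and over all tested loops it was 0.01 in both comparisons. Both comparisons share the 0 h libraries.

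**Figure D1:**
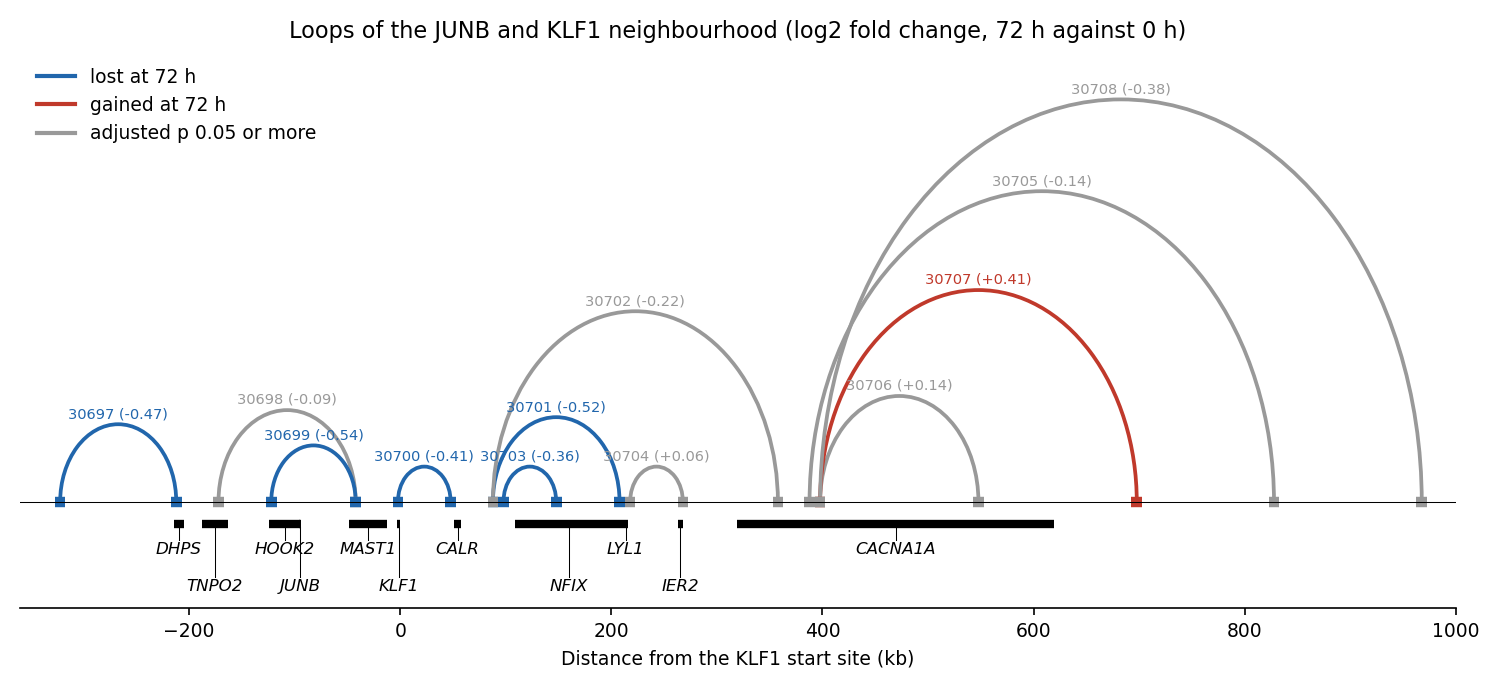
Map of the 12 loops. The x axis gives the distance from the KLF1 start site in kb, each arc joins the anchors of 1 loop with a height that follows its length, and black bars are genes. Arc labels give the loop number with the log2 fold change of 72 h against 0 h, and the arcs over JUNB, KLF1-CALR and NFIX range from -0.54 (loop30699) to -0.09 (loop30698).

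The loop that joins KLF1 to CALR is loop30700, with anchors at chr19:12880001-12890000 and chr19:12930001-12940000, 50 kb apart. Its first anchor holds the start sites of KLF1 and of DNASE2, a lysosomal nuclease needed to digest the DNA that erythroblasts expel. The second anchor holds those of CALR, a calcium-binding chaperone of the endoplasmic reticulum, and of FARSA, a subunit of a tRNA synthetase. GCDH and SYCE2 lie between the anchors. The KLF1 and CALR start sites, whose upstream sequences are printed above, sit at the 2 feet of this loop. Normalized counts, in contacts per 1000000 contacts of tested loops, were 138.3, 132.9, 117.9 and 134.2 in replicates 1 to 4 at 0 h. They were 115.7, 108.4, 97.6 and 115.8 at 6 h, and 102.6, 94.4, 89.4 and 108.0 at 72 h. Every 6 h and every 72 h library lay below every 0 h library, while 6 h and 72 h overlapped. The mean went from 132.4 ± 6.16 (SD, n = 3) at 0 h to 109.4 ± 8.56 (n = 4) at 6 h and 98.6 ± 4.13 (n = 3) at 72 h. The log2 fold change at 72 h was -0.41 with a standard error of 0.11 (edgeR adjusted p = 0.00155). With a correction for loop length it was -0.25, just inside the threshold (edgeR adjusted p = 0.0491). At 6 h it was -0.26 ± 0.11 (SE), which did not pass (adjusted p = 0.144), and neither did the difference between 6 h and 72 h (log2 fold change -0.15, adjusted p = 0.365).

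**Figure D2:**
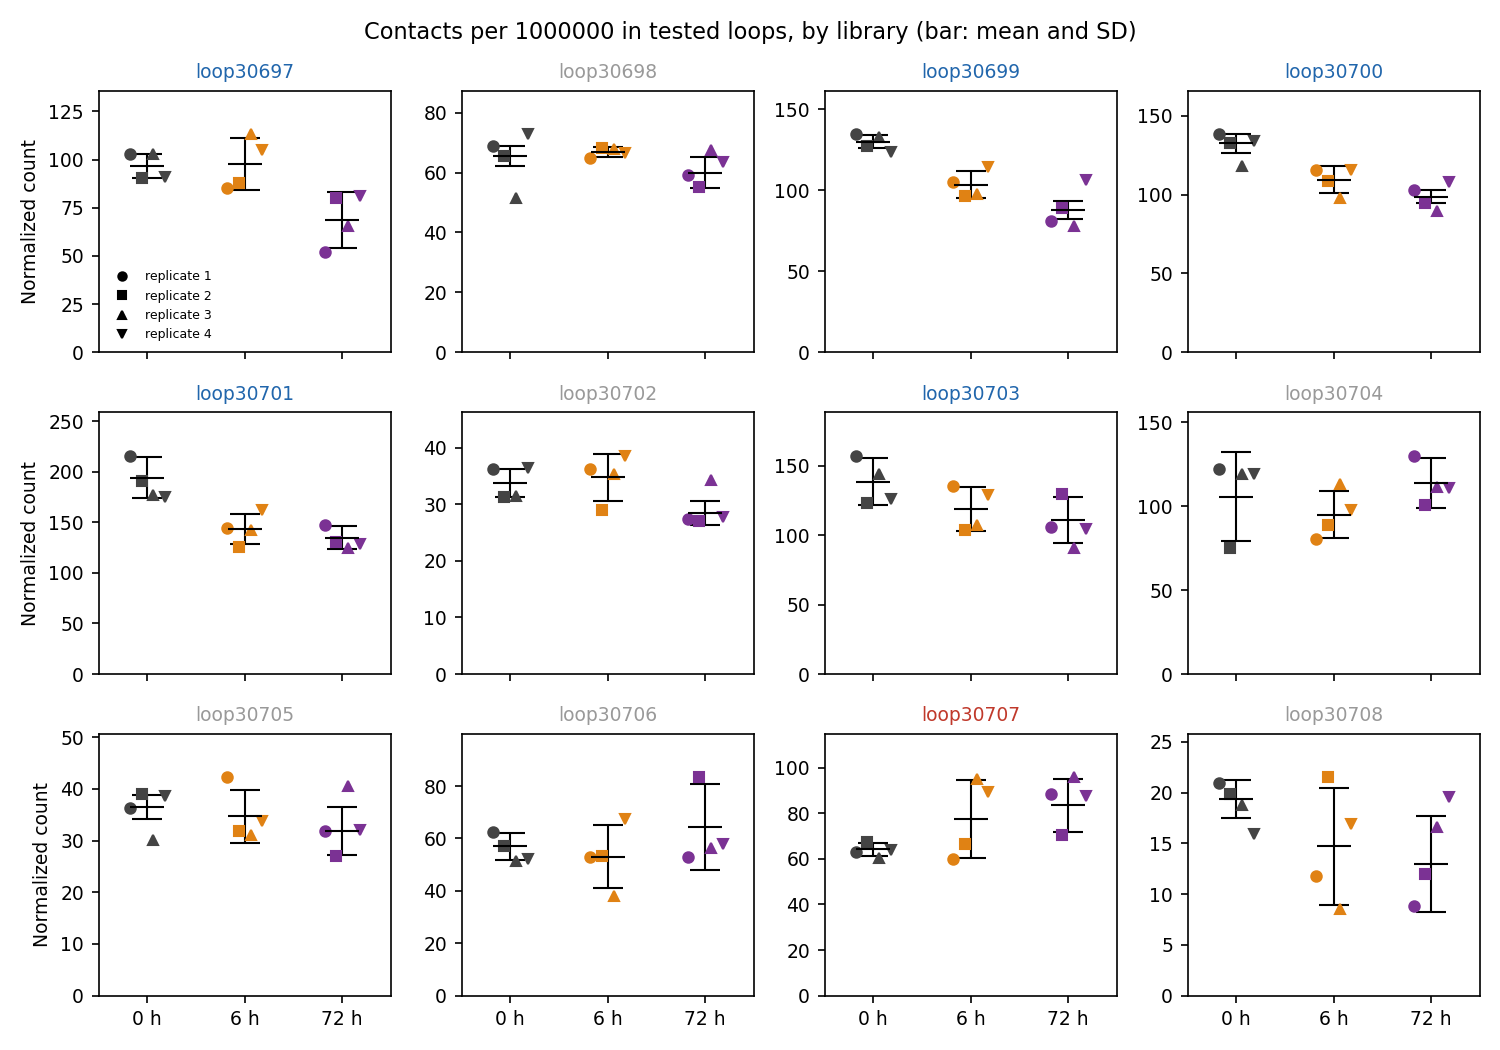
Normalized contact count (y axis, contacts per 1000000 in tested loops) of each of the 12 loops in every library at 0 h, 6 h and 72 h (x axis). Symbols are biological replicates and bars give the mean and SD with replicates 3 and 4 counted as 1 sample at 0 h and 72 h; the titles are blue for loops lost at 72 h, red for gained and grey for the others. In loop30700 all 0 h libraries lie between 117.9 and 138.3, above all 72 h libraries at 89.4 to 108.0.

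JUNB itself, at chr19:12791486-12793315 on the plus strand, lay in no loop anchor anywhere in the table, by either end or by any part of the gene. The nearest anchor edges were 21.49 kb below and 46.69 kb above it. It lay inside a pair of nested loops that end at the same anchor over MAST1, a kinase gene. The shorter, loop30699, runs 80 kb from an anchor at the end of HOOK2 (chr19:12760001-12770000) to chr19:12840001-12850000. It encloses JUNB and 4 further genes, among them PRDX2, a peroxidase that is abundant in red cells, and RNASEH2A. Its normalized counts were 134.7, 127.2, 133.0 and 123.9 at 0 h. At 6 h they were 104.9, 96.3, 97.6 and 114.6, and at 72 h they were 81.4, 89.3, 78.0 and 106.2. All later libraries lay below all 0 h libraries, and 6 h and 72 h overlapped. The mean fell from 130.1 ± 4.02 (n = 3) at 0 h to 87.6 ± 5.57 (n = 3) at 72 h, or -0.54 ± 0.11 (SE) on the log2 scale (adjusted p = 4e-05, edgeR). At 6 h the mean was 103.4 ± 8.41 (n = 4), and the log2 fold change of -0.33 lay just outside the threshold (adjusted p = 0.0517).

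The longer loop over JUNB, loop30698, starts 130 kb from the shared anchor, inside TNPO2, a nuclear import receptor gene. It did not pass at either time. Normalized counts were 51.4 to 72.8 at 0 h, 64.7 to 68.2 at 6 h and 55.2 to 67.6 at 72 h, so the times overlapped. The log2 fold change at 72 h was -0.09 ± 0.13 (SE; adjusted p = 0.636). Because both loops are counted from 1 anchor in the same library, the ratio of their raw contacts needs no scaling between libraries. It sets 80 kb against 130 kb, so a change with length is not removed. The ratio of the short to the long loop was 1.96, 1.94, 2.59 and 1.70 at 0 h. At 6 h it was 1.62, 1.41, 1.44 and 1.73, and at 72 h it was 1.37, 1.62, 1.15 and 1.68. All 72 h ratios lay below all 0 h ratios, with 1.68 against 1.70 at the closest, and 6 h overlapped 0 h. The mean ratio was 2.01 ± 0.11 (n = 3), 1.55 ± 0.15 (n = 4) and 1.47 ± 0.13 (n = 3) at the successive times.

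The highest counts of the neighbourhood and its 1 early change were at the 3′ end of NFIX, a nuclear factor I gene known from muscle and blood progenitors. Loop30701 spans 120 kb from chr19:12970001-12980000, which holds an end of DAND5, a secreted antagonist of the TGF-beta family, to chr19:13090001-13100000. The second anchor holds an end of NFIX and an end of LYL1, a blood transcription factor related to TAL1. Normalized counts were 215.8, 190.8, 176.9 and 175.1 at 0 h. They were 144.1, 125.2, 142.9 and 161.7 at 6 h, and 147.7, 130.5, 124.8 and 128.5 at 72 h. All treated libraries lay below all 0 h libraries. The log2 fold change was -0.42 ± 0.10 (SE) at 6 h by edgeR (adjusted p = 0.00292), then -0.52 ± 0.10 at 72 h (adjusted p = 8.1e-06), while the difference between 6 h and 72 h did not pass (-0.10, adjusted p = 0.535). The 6 h call rested on a part of the libraries: without 0 h replicate 1 the log2 fold change was -0.35 (adjusted p = 0.0526), and within replicates 3 and 4 it was -0.20 (adjusted p = 0.52), against -0.60 (adjusted p = 0.00638) within replicates 1 and 2. At 72 h the loop was called within both pairs of replicates, at -0.56 (adjusted p = 0.00154) and -0.47 (adjusted p = 0.00418).

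Loop30702 shares the DAND5 anchor and runs 270 kb over NFIX, LYL1 and IER2 to a position inside CACNA1A. It did not pass, with normalized means of 33.8, 34.8 and 28.5 and a log2 fold change of -0.22 ± 0.17 (SE; adjusted p = 0.337) at 72 h. The ratio of loop30701 to loop30702 again needs no scaling between libraries. It sets 120 kb against 270 kb, so a change with length is not removed. The ratio was 4.81 to 6.09 at 0 h, 3.97 to 4.32 at 6 h and 3.64 to 5.39 at 72 h. The 6 h ratios lay below all 0 h ratios, and the 72 h ratios overlapped them. Its mean was 5.76 ± 0.47 (n = 3), 4.13 ± 0.16 (n = 4) and 4.78 ± 0.62 (n = 3).

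**Figure D3:**
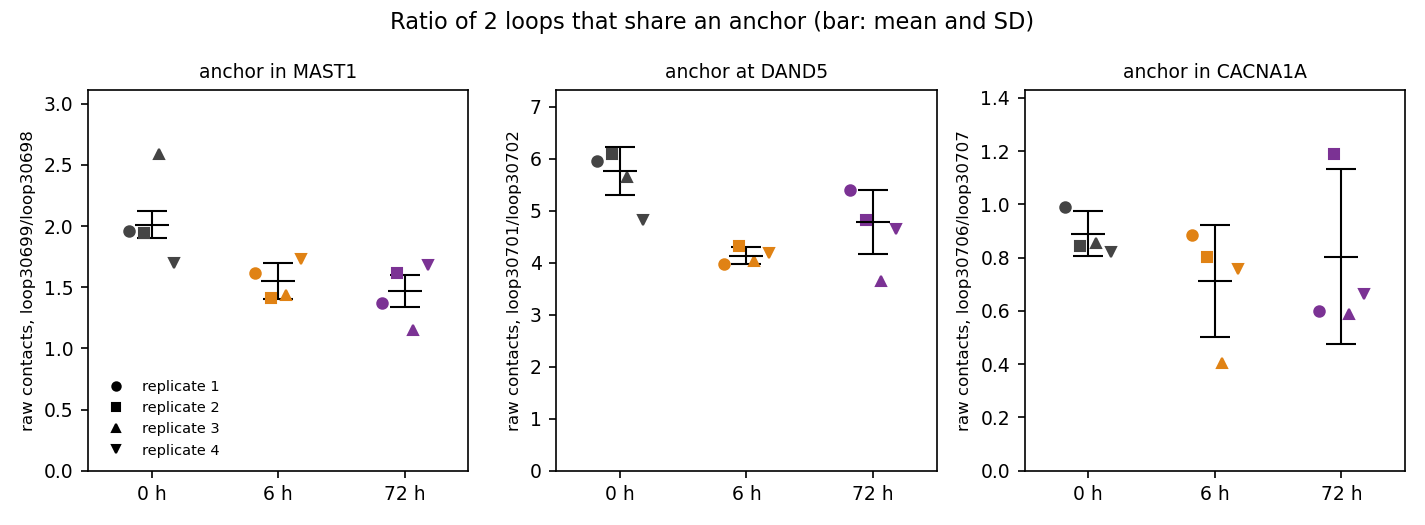
Ratio of raw contacts of 2 loops that share an anchor (y axis) in each library at 0 h, 6 h and 72 h (x axis), for the anchors in MAST1, at DAND5 and in CACNA1A. Symbols are biological replicates and bars give the mean and SD with replicates 3 and 4 counted as 1 sample at 0 h and 72 h; the DAND5 ratio lies at 4.81 to 6.09 at 0 h and 3.97 to 4.32 at 6 h.

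A second loop of the NFIX segment, loop30703, joins chr19:12980001-12990000, which holds no gene of the table, to chr19:13030001-13040000 inside NFIX, 50 kb away. Its normalized counts were 157.2, 123.4, 144.3 and 126.2 at 0 h, 135.3, 103.7, 107.5 and 129.1 at 6 h, and 106.2, 129.5, 90.5 and 104.4 at 72 h. The times overlapped, since 72 h replicate 2 lay above 2 of the 0 h libraries. It was lost at 72 h, at -0.36 ± 0.11 (SE) on the log2 scale (adjusted p = 0.0051, edgeR). The call ended without 0 h replicate 1 (-0.29, adjusted p = 0.0586), within replicates 1 and 2 alone (-0.28, adjusted p = 0.169) and with a correction for loop length (-0.21, adjusted p = 0.107).

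Beyond NFIX, loop30704 joins an anchor with LYL1 and TRMT1, a tRNA methyltransferase gene, to one with STX10 and IER2, an immediate early gene. The start sites of LYL1, STX10 and IER2 lie in its anchors, which are 50 kb apart. It did not pass in any comparison with all libraries scaled on all loops. Its normalized counts were 122.4, 75.0, 119.2 and 119.4 at 0 h, 80.4, 88.8, 113.2 and 97.7 at 6 h, and 130.0, 100.4, 111.3 and 110.7 at 72 h. The log2 fold change was -0.21 ± 0.12 (SE) at 6 h and 0.06 ± 0.11 at 72 h, and 0.27 ± 0.12 between 6 h and 72 h (adjusted p = 0.0849). The 0 h library of replicate 2 was the lowest of all, and without it the log2 fold change was -0.10 at 72 h and -0.37 at 6 h, a call (adjusted p = 0.0436). Without 6 h replicate 3, the difference between 6 h and 72 h was 0.34 and was called (adjusted p = 0.0458).

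At the other end of the stretch, loop30697 was the loop that changed late. It runs 110 kb from chr19:12560001-12570000 to chr19:12670001-12680000. The second anchor holds ends of WDR83 and of DHPS, the enzyme that begins the hypusine modification of eIF5A, and MAN2B1, a lysosomal mannosidase gene, lies between the anchors. Normalized counts were 102.8, 90.2, 102.9 and 91.0 at 0 h. They were 85.3, 87.8, 113.2 and 105.0 at 6 h, and 52.2, 80.3, 65.5 and 81.2 at 72 h. The 72 h libraries lay below all others, and 6 h overlapped 0 h. The log2 fold change was -0.01 ± 0.11 (SE) at 6 h (adjusted p = 0.981), -0.47 ± 0.12 at 72 h by edgeR (adjusted p = 0.00141) and -0.46 ± 0.13 between 6 h and 72 h (adjusted p = 0.00452). The difference between 6 h and 72 h was not called without 72 h replicate 1 (-0.34, adjusted p = 0.0656), nor within replicates 1 and 2 (-0.40, adjusted p = 0.133), nor with libraries scaled on chromosome 19 loops (-0.30, adjusted p = 0.0593).

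Within replicates 3 and 4 alone, 2 of the calls at 72 h were not reached: loop30697 had a log2 fold change of -0.38 (adjusted p = 0.0911) and the KLF1-CALR loop one of -0.34 (adjusted p = 0.0819). Within replicates 1 and 2 they were -0.57 (adjusted p = 0.00889) and -0.47 (adjusted p = 0.0176). The short loop over JUNB was called within both pairs, at -0.63 (adjusted p = 0.00144) and -0.45 (adjusted p = 0.0197). These pairs differ in the number of technical replicates and sequencing runs, and with that difference as a term in the fit 6 of the 12 loops were called at 72 h, 5 lost and 1 gained.

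The remaining loops start inside CACNA1A, the gene of a voltage-gated calcium channel subunit, and reach past the end of the stretch. Loop30707, 300 kb long, was the loop that rose. Its normalized counts were 63.0, 67.4, 60.2 and 63.7 at 0 h, 59.8, 66.4, 94.8 and 89.3 at 6 h, and 88.5, 70.3, 95.7 and 87.5 at 72 h. Every 72 h library lay above every 0 h library, and at 6 h replicates 3 and 4 lay above all 0 h libraries while replicate 1 lay just below them and replicate 2 among them. The log2 fold change was 0.24 ± 0.13 (SE) at 6 h (adjusted p = 0.301) and 0.41 ± 0.13 at 72 h by edgeR (adjusted p = 0.00654). Within replicates 1 and 2 alone the 72 h value was 0.28 (adjusted p = 0.253), and within 3 and 4 it was 0.54 (adjusted p = 0.0173).

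Loop30706 and loop30708 start at the same anchor as loop30707, chr19:13280001-13290000, and loop30705 starts in the adjoining one. None of these passed in any comparison with all libraries scaled on all loops, with log2 fold changes at 72 h of 0.14 ± 0.14 (SE), -0.38 ± 0.23 and -0.14 ± 0.17. Without 72 h replicate 2, loop30706 stood at -0.03. Within replicates 1 and 2 alone loop30708 was called at -0.89 (adjusted p = 0.0365), and within 3 and 4 it stood at 0.07 (adjusted p = 0.91). Loop30708 had the fewest contacts, 6 to 29 per library, and the exact 95% Poisson interval around 6 runs from 2.2 to 13.1, for counting error only. The ratio of loop30706 to loop30707 was 0.821 to 0.989 at 0 h and 0.587 to 1.19 at 72 h, which overlap. Just outside the chosen stretch, the nearest loops were loop30696, which begins at 12190001 and ends in the anchor from 12340001, and loop30709, which begins at 13360001. Their normalized means at 0 h, 6 h and 72 h were 29.7, 29.8 and 32.1, and 88.8, 110.9 and 95.8.

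The libraries of 72 h and 0 h did not overlap in 5 of the 12 loops, 4 lower and 1 higher at 72 h, beside 28.3% of all tested loops. At 6 h this held for 3 loops, all lower, beside 10.7%. Between 6 h and 72 h it held for 1 loop, beside 19.8%. The rest of chromosome 19 fell as well. Of its 635 other tested loops, 224 (35.3%) were lost at 72 h and 26 gained, and their median log2 fold change was -0.21. In the neighbourhood, 5 of 12 loops were lost (41.7%), so the share lay near that of its chromosome. Among tested loops of 50 kb to 120 kb, the lengths of the lost neighbourhood loops, 32.4% of 3828 were lost over the genome and 42.2% of 199 on the rest of chromosome 19.

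Summed over the 12 loops, contacts made up 0.102% ± 0.0063 (SD, n = 3) of all loop contacts at 0 h, 0.0915% ± 0.0053 (n = 4) at 6 h and 0.0865% ± 0.0013 (n = 3) at 72 h. Single libraries ran from 0.0973% to 0.109% at 0 h, 0.0864% to 0.0989% at 6 h and 0.0847% to 0.0903% at 72 h. As a share of chromosome 19 loop contacts, the same sum was 2.33% ± 0.12 (n = 3), 2.18% ± 0.052 (n = 4) and 2.29% ± 0.055 (n = 3). The share of all contacts that lay in chromosome 19 loops went from 4.36% ± 0.21 to 3.79% ± 0.096 between 0 h and 72 h. No test was made on these sums.

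When libraries were scaled on the loops of chromosome 19 alone, the median of all tested loops moved up to 0.21 at 72 h and that of the 12 loops to -0.08. Under this scaling, 81 of the 635 other tested chromosome 19 loops were lost and 89 gained, with a median of -0.01. Over all tested loops, whose median this scaling moved up, 6.18% were lost and 29.9% gained. Of the 12, 5 were then called: 2 lost and 3 gained. Loop30701 at NFIX (log2 fold change -0.31, adjusted p = 0.00507) and the short loop over JUNB (-0.33, adjusted p = 0.0104) were the lost ones. The KLF1-CALR loop had -0.20 (adjusted p = 0.129), loop30697 had -0.26 (adjusted p = 0.0824) and loop30703 had -0.15 (adjusted p = 0.259), and none of these was called. Gained were loop30707 at 0.62 (adjusted p = 2.6e-05), loop30706 at 0.35 (adjusted p = 0.043) and the LYL1-IER2 loop30704 at 0.27 (adjusted p = 0.0379). Loop30699, loop30701 and loop30707 were thus called with either scaling, and loop30697, loop30700 and loop30703 were not called with chromosome 19 scaling.

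**Figure D4:**
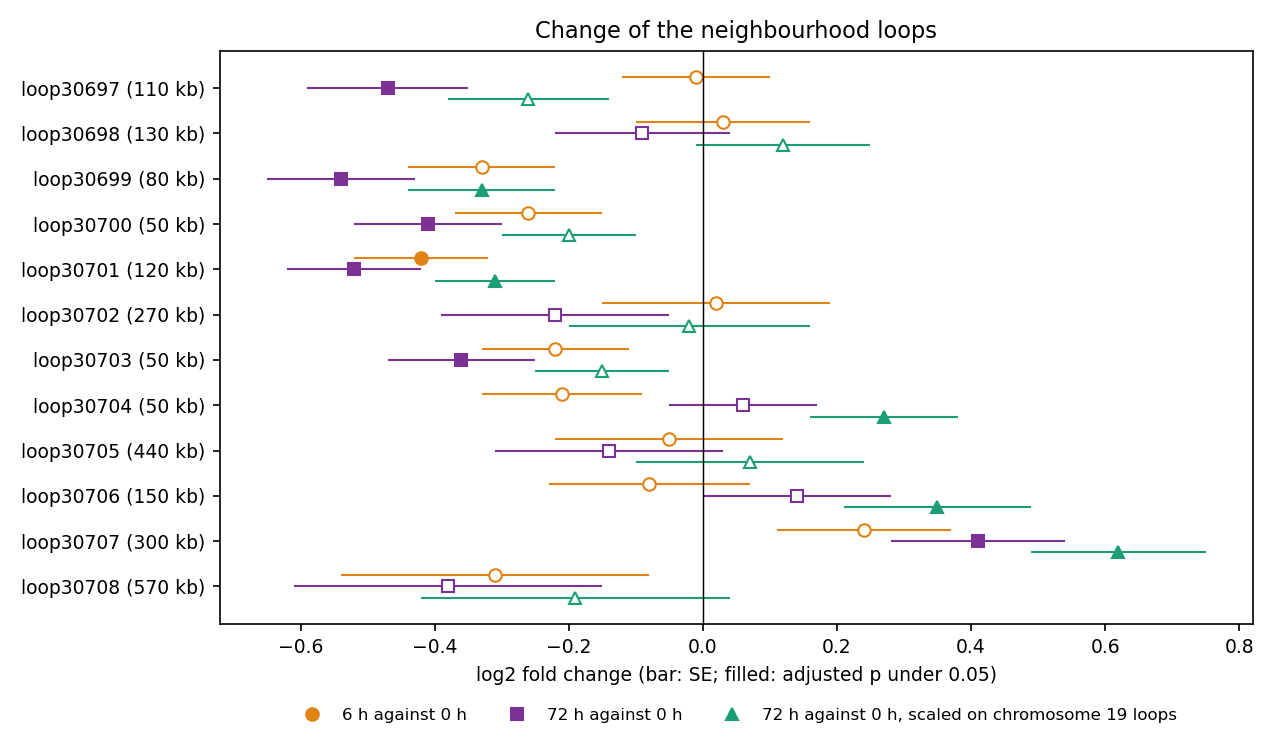
Log2 fold change (x axis) of each of the 12 loops (y axis, with length) at 6 h and at 72 h against 0 h, and at 72 h with libraries scaled on chromosome 19 loops. Bars are standard errors and filled symbols have an adjusted p under 0.05; loop30699 stays below 0 in all 3 (-0.33, -0.54 and -0.33), while loop30698 lies at -0.09 at 72 h and at 0.12 after chromosome 19 scaling.

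Other genes of the same families were taken from lists chosen with earlier results of these data known, by loops with a gene end in an anchor, and their counts are a description. Of 13 AP-1 subunit genes, 9 had a tested loop, and JUNB had none. At 72 h, 2 of their 16 loops were gained and 3 lost, beside 16.7% gained and 16.9% lost of all tested loops, and the median over all 16 was -0.05. JUN, the founding subunit, held both gained loops, loop675 at 0.57 (edgeR adjusted p = 0.00015) and loop676 at 0.40 (adjusted p = 0.0113). JUND, a subunit present in most cells, held 2 of the lost loops, loop30780 at -0.86 (adjusted p = 1.1e-09) and loop30781 at -0.46 (adjusted p = 6.3e-05), and ATF7 the other. JUND lies on chromosome 19 like JUNB, and with chromosome 19 scaling its loops were at -0.65 and -0.24. FOSB, also on chromosome 19, had a loop that fell at 6 h by 0.44 on the log2 scale (adjusted p = 0.00386) and stood at -0.16 at 72 h (adjusted p = 0.209).

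In the KLF family, 11 of 16 genes had a tested loop. Of their 18 loops, 5 were gained and 2 lost at 72 h, beside the same 16.7% and 16.9%, with a median of 0.13. The gained ones lay at KLF4, KLF6 and KLF7, up to 1.21 at KLF6 (loop19893, adjusted p = 8e-05), and the KLF1 loop was 1 of the 2 lost. With chromosome 19 scaling 8 were gained and 0 lost, where 29.9% of all tested loops were gained and 6.18% lost. By gene ends, all 4 nuclear factor I genes had 1 loop each, and the NFIX loop was the 1 called at 72 h. The NFIA, NFIB and NFIC loops were at 0.02, 0.56 (adjusted p = 0.0763) and -0.35 (adjusted p = 0.337). With genes placed by any part of the body, these genes had 19 loops, 2 gained and 4 lost at 72 h, among the lost loop30703 inside NFIX. The KLF family then had 38 loops, 13 gained and 5 lost, beside the same 16.7% and 16.9%.

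Of 28 erythroid genes, 11 had a tested loop. At 72 h, 9 of their 14 loops were lost and 1 was gained, with a median of -0.37. Of all tested loops, 16.9% were lost and 16.7% gained, and of those of 50 kb to 120 kb 32.4% were lost. That range was taken from the neighbourhood and does not match these 14 erythroid loops, which ran from 30 kb to 560 kb. The lost loops included those at HBG2, a fetal globin gene (loop21321, -0.44, adjusted p = 0.00063), at HBA1 and HBA2, the alpha globin genes (loop28358, -0.39, adjusted p = 0.00189), and at EPOR, the erythropoietin receptor gene on chromosome 19 (loop30687, -0.34, adjusted p = 0.00993), beside the KLF1 loop at -0.41. With chromosome 19 scaling 3 were lost and 1 gained, beside 6.18% and 29.9% of all tested loops, and with scaling to the total count 7 and 1. Of 20 other genes of the stretch, 8 had a tested loop, and 4 of the 6 loops at them were lost at 72 h, beside 16.9% of all tested loops and 35.3% of those on the rest of chromosome 19. With chromosome 19 scaling 2 of these 6 were lost and 1 was gained, beside 81 lost and 89 gained of the 635 on the rest of chromosome 19. All 6 are loops already described.

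The loops outside the stretch whose log2 normalized counts followed the KLF1-CALR loop most closely over the 12 libraries were loop16032 on chromosome 7 at HECW1 (Pearson r = 0.952), loop13726 on chromosome 6 at LRRC73 and TJAP1 (r = 0.93) and loop1434 on chromosome 1 (r = 0.926). Their log2 fold changes at 72 h were -0.77, -0.48 and -0.70. These were picked as the highest correlations among all tested loops, and the libraries share time and depth.

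In the authors' deposited table, the log2 values of 72 h were -0.325 for the KLF1-CALR loop, -0.464 for the short loop over JUNB and -0.445 for loop30701 at NFIX. The adjusted p-values in the authors' deposited table, from the column labelled with the 72 h time, were 0.0929, 0.0155 and 0.00245. For loop30707 the authors' deposited table gives 0.357 with an adjusted p of 0.155.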

How the data were processed

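Contacts of 42 Hi-C samples were read from the authors' deposited table of raw contact counts per loop, in 30 columns of technical replicates, which were summed into 12 libraries. Juicer 1.5.6, DESeq2 and the hg38 build are named in the submitters' processing notes without their roles. The authors also deposited log2 fold changes, an adjusted p-value and other columns (loop positions and a class), per the file headers. No per-sample column was left aside. The fit used edgeR 4.0.16 (R 4.3.3): filterByExpr (minimum count 10, minimum total 15) kept 24132 loops and left out 9782, with TMM scaling, 1 quasi-likelihood model of the 12 libraries, Benjamini-Hochberg adjustment over all tested loops and a threshold of 0.05. A prior count of 2 enters each log2 fold change. Standard errors were obtained as the absolute log2 fold change over the square root of F. Normalized counts are per 1000000 contacts of tested loops. Likeness used log2 of the normalized count plus 1. The fit was tested on simulated data. The loop correction for length was an offset from a loess curve (span 0.3), and DESeq2 1.42.0 was an alternative test.

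Replicate numbers occur at every time, and the check of pairing gave correlations of deviations of 0.015 to 0.124 for same-numbered libraries. For libraries with different numbers they were -0.074 to 0.044. Pairs of replicate 2 were the highest, at 0.124, 0.066 and 0.061. With 1 of 12 pairs over the chosen cutoff of 0.1, the numbers were not taken as pairs in the main fit. All same-numbered correlations were positive, so some shared spread is not excluded. A fit with the numbers as a block is given further on. Gene positions are from RefSeq GRCh38.p14, and genes were assigned to an anchor that held either of their ends. Exons and introns were not used here. Loops named singly were those with JUNB, KLF1, CALR, DNASE2 or NFIX at an anchor or past the threshold in any comparison. Loop30698 and loop30704, and the loops that start in CACNA1A, are given as further members. The CALR window and the named loops of other families were chosen after their values were seen. The neighbourhood, its genes and the lists were chosen with earlier results of these data known.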

Additional observations from a re-analysis of the deposited data

Results flagged for a closer look

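Loop30697, which ends at DHPS and WDR83, stood out because its change at 72 h differed from that at 6 h in a direct test. Its log2 difference between 72 h and 6 h was -0.46 (edgeR adjusted p = 0.00452), with all 4 libraries of 72 h below all 4 of 6 h. The call was lost with chromosome 19 scaling (adjusted p = 0.0593), without 72 h replicate 1 (0.0656) and within replicates 1 and 2 (0.133). No library of the 12 groups that could be checked, all of 6 h, stood apart from the others of its group, where chance alone would mark about 0.6. Groups of 0 h and 72 h were not checked. The check thus says nothing on 72 h replicate 1 of loop30697, at 52.2 where the other 72 h libraries ran from 65.5 to 81.2.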

How the results depend on the processing

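Over the whole table, 1546 loops changed at 6 h, 438 with DESeq2 (340 without independent filtering), 1001 with the length correction, 526 in replicates 1 and 2 alone and 213 in 3 and 4 alone. At 72 h 8105 became 4977 with DESeq2, with or without independent filtering, and 4947 and 3973 in these replicate pairs. Between 6 h and 72 h 4945 became 1979 with DESeq2, either way, and 2400 and 1690. Leaving out 1 library gave 709 to 1556 loops at 6 h (709 without 0 h replicate 1, 868 without 6 h replicate 2), 6554 to 8477 at 72 h and 3676 to 5115 between 6 h and 72 h. The split at 6 h was 565 gained and 981 lost, 769 and 731 with total count scaling and 755 and 569 with chromosome 19 scaling, which between 6 h and 72 h gave 4603 and 964 in place of 2577 and 2368.

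Of the neighbourhood loops, 1 was called at 6 h. It became 2 with no filter on low counts, a batch term, the replicate block or the 72 h replicates 3 and 4 summed, 0 in replicates 3 and 4 alone, and 0 to 2 with 1 library left out. The added call at 6 h under these settings was the short loop over JUNB, at adjusted p 0.0428, 0.0404, 0.0269 and 0.0469. At 72 h, 5 to 6 loops were called with 1 library left out. Between 6 h and 72 h it was 2 with chromosome 19 scaling, both gained, 0 in replicates 1 and 2 alone, and 0 to 2 with 1 library left out. The replicate block gave 1938 loops at 6 h, 8560 at 72 h and 5472 between them, and of the neighbourhood calls it changed only the one at 6 h. The summed contacts changed by -0.229 (log2) at 72 h, or -0.026 as a share of chromosome 19 loops.

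Directions turned only in values that were not called. At 6 h loop30697 (-0.008) became 0.032 with total count scaling, 0.048 with chromosome 19 scaling, 0.064 with the length correction, 0.166 in replicates 3 and 4, and -0.085 to 0.047 with 1 library left out. Loop30698 (0.03) became -0.025 in replicates 1 and 2 and -0.047 to 0.071 with 1 library left out, and loop30707 (0.241) became -0.047 in replicates 1 and 2. At 72 h loop30698 (-0.089) became 0.119 with chromosome 19 scaling and 0.059 in replicates 3 and 4. Loop30704 (0.058) became -0.01 with no filter, -0.103 in replicates 3 and 4 and -0.103 to 0.123 with 1 library left out. Between 6 h and 72 h, chromosome 19 scaling turned loop30698 to 0.032, loop30700 to 0.004, loop30701 to 0.058 and loop30703 to 0.011. Replicates 1 and 2 turned loop30701 to 0.044 and replicates 3 and 4 turned loop30707 to -0.008. The cause was not tested. Of 600 values of the 8 loops given singly, 552 kept direction and side of the threshold, 14 lost a call, 11 gained one and 23 turned, and of 299 values of the other 4 loops 275 kept both, 2 gained a call and 22 turned. Placing genes by any part of the body gave 3 loops at the 5 named genes in place of 2.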
